A study of Homo sapiens with 15 samples.

Results

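The genes described here encode 9 proteins of regulated vesicle release: the SNARE proteins STX1A, SNAP25 and VAMP2, the SNARE-binding protein CPLX2, the vesicle proteins SYP, SYN1 and SV2A, and the active zone scaffolds BSN and PCLO. They were chosen by symbol, as a set of SNARE, vesicle and active zone genes, and are 9 of the 62754 Ensembl genes in the count table. All 9 passed the filter on low counts and entered the test. Messenger RNA was measured in NCI-H69 cells, an established human line of the classic type of small cell lung cancer, a neuroendocrine tumour. The cells had received FB23-2, CS2 or the solvent DMSO, with 3 libraries a group that the series calls biological replicates, and no other genotype or agent is labelled. Both compounds are FTO inhibitors in the series' terms, FTO being a demethylase of m6A in RNA. CS2 is a name used for brequinar, better known as a blocker of pyrimidine synthesis. No source used here gives a dose or a time, so each compound stands for its labelled treatment in 1 cell line. The 6 H82 libraries of the series were not used here.

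A secretory vesicle fuses with the plasma membrane when VAMP2 on the vesicle zips together with STX1A and SNAP25 on the plasma membrane into a 4-helix bundle, which complexins bind and synaptotagmins trigger upon calcium entry. SYP and SV2A are integral vesicle proteins, synapsins such as SYN1 tether vesicles into clusters, and the very large scaffolds BSN and PCLO organise the active zone where vesicles dock. Neuroendocrine cells use the same proteins for hormone and peptide release, and SYP, the synaptophysin gene, is a standard diagnostic marker of neuroendocrine tumours. Many neuronal genes carry an RE1 element, to which the repressor REST binds to keep them silent outside neurons and neuroendocrine cells.

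Library totals lay between 32352835 and 43957839 counts for FB23-2, 29916267 and 33663742 counts for CS2, and 31404658 and 45022633 counts for DMSO. Levels are given in CPM, counts scaled to a common library total with TMM factors, on which scale 3 counts lie between 0.0666 and 0.1006 CPM. FB23-2 replicate 2 stood apart from the rest of its group: 10.98% of its counts came from the mitochondrial genome, against 6.83% and 6.91% in the other FB23-2 libraries, 7.30% to 9.05% with CS2 and 5.18% to 5.69% with DMSO. Results that rest on this library are given with and without it. The 10 neuroendocrine markers summed to between 2632 and 3013 CPM with FB23-2, 2905 and 3004 CPM with CS2 and 2989 and 3178 CPM with DMSO, and NEUROD1 alone of them lay under 1 CPM in every library. The 6 fibroblast markers summed to between 10.6 and 15.3 CPM with FB23-2, 33.1 and 39.7 CPM with CS2 and 52.7 and 54.5 CPM with DMSO, nearly all of it COL1A2, while COL3A1 and DCN had no count in any library. The part of these markers in the results below was not tested. In such bulk libraries, fewer cells that carry a transcript and less of it per cell cannot be told apart.

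The RefSeq promoter windows of 8 of the 9 genes (not SNAP25), from 250 bases before to 50 bases after the start, were searched on both strands for the left and right motifs of the RE1 element, CAGCACC and GGACAG. SYN1, the synapsin gene, held both motifs in order with 2 bases between them, an arrangement found in 18 of 35116 windows (0.0513%). PCLO held CAGCACC, which is found in 7.75% of all windows, and BSN held GGACAG, which is found in 20.5%. The RefSeq window of SV2A lies inside the gene as GENCODE places it, not at its start, and held GGACAG at 2 places. The windows of SYP, STX1A, VAMP2 and CPLX2 held neither. The 3 windows below are those of SYN1, which carries the whole core, and of the homologous scaffold genes PCLO and BSN, of which PCLO was called in every comparison and BSN in none. They are on GRCh38.p14, read 5′ to 3′ on the gene's strand, with motif matches on either strand in capitals: SYN1 at chrX:47619808-47620107 (minus strand), PCLO at chr7:83162835-83163134 (minus strand) and BSN at chr3:49554227-49554526 (plus strand).
SYN1: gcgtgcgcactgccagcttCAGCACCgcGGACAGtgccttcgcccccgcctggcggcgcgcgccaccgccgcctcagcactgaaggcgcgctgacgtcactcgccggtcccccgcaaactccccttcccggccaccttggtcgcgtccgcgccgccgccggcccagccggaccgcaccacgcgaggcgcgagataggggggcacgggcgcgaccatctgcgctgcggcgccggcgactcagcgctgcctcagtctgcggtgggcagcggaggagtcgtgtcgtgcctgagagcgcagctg
PCLO: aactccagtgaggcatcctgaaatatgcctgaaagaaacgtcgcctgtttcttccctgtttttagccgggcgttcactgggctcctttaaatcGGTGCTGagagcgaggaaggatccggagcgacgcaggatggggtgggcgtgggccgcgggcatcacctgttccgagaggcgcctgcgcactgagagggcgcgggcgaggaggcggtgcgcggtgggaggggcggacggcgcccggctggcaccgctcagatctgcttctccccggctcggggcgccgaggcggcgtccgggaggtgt
BSN: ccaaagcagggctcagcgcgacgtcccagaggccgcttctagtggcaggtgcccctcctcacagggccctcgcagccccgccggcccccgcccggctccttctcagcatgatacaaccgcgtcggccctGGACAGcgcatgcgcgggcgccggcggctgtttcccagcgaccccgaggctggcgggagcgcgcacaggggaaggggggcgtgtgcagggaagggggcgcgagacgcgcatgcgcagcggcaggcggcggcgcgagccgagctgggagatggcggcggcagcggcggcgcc
Positions are counted from the RefSeq start, which differs from the outermost start of the GENCODE gene coordinates given below. In SYN1 the element begins at position -231, in PCLO the match lies at -157 on the opposite strand, and in BSN it lies at -121. REST itself had 2, 2 and 1 counts in the FB23-2 libraries, 0 in each CS2 library and 0 in each DMSO library, all under the limit of 3 counts. A match to these letters is a description of the window and not a measured site.

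With FB23-2 against DMSO, 5 of the 9 genes rose (STX1A, SNAP25, SYN1, SV2A and PCLO), 2 fell (CPLX2 and SYP), and VAMP2 and BSN did not pass the test. Calls were made at an adjusted p under 0.05, from the quasi-likelihood test of edgeR, adjusted by Benjamini-Hochberg across the 19781 genes tested. Of all genes tested, 52.0% passed in this comparison, 25.4% higher and 26.7% lower, so a call is common. The median log2 fold change of the 9 genes was 0.39, beside -0.001 over all genes tested. With CS2 against DMSO, 5 rose (STX1A, SNAP25, CPLX2, SYN1 and SV2A), PCLO fell, and VAMP2, SYP and BSN did not pass. Here 49.7% of all genes passed, 24.3% higher and 25.3% lower, and the median of the 9 genes was 0.29, beside -0.002 over all genes. Both compounds were set against the same 3 DMSO libraries, so the 2 comparisons are not independent of each other. Directly between the compounds, SNAP25 and PCLO were higher with FB23-2 than with CS2, and CPLX2, SYP, SYN1 and SV2A were lower with FB23-2. In that comparison 59.6% of all genes passed, 29.7% higher and 30.0% lower.

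**Figure D1:**
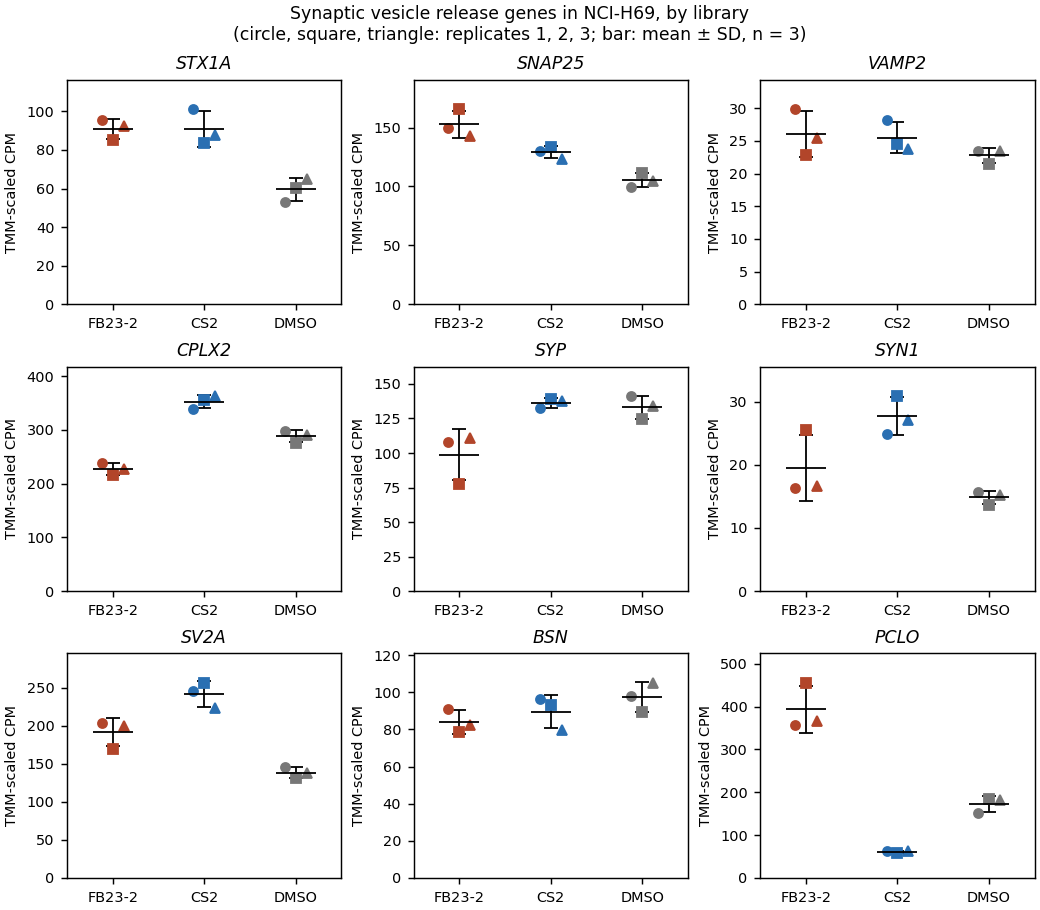
Level of each gene in TMM-scaled CPM (vertical axes, from 0) in every library of the FB23-2, CS2 and DMSO groups, with the mean and SD of 3 libraries as bars. PCLO lies between 357.8 and 455.7 CPM with FB23-2, between 58.2 and 62.5 CPM with CS2 and between 150.6 and 183.9 CPM with DMSO, and the square of FB23-2 replicate 2 lies apart for SYP, SYN1 and PCLO.

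Among the plasma membrane SNAREs, STX1A, the syntaxin of fast release (ENSG00000106089, chromosome 7, 73699206 to 73719672, minus strand, GRCh38), had 95.2, 85.3 and 92.3 CPM with FB23-2, 101.1, 83.6 and 87.9 CPM with CS2, and 53.3, 60.5 and 65.0 CPM with DMSO. All 6 treated libraries lay above all 3 DMSO libraries, and the compounds overlapped. STX1A rose 1.53-fold with FB23-2 (log2 fold change 0.61 ± 0.09 SE, adjusted p = 1.64e-05, edgeR) and 1.53-fold with CS2 (0.61 ± 0.09, adjusted p = 1.82e-05, edgeR), with a difference between the compounds of 0.00 ± 0.09 (adjusted p = 0.996). After a smooth of GC content and genomic span was taken out of every library, the GC and span correction, STX1A was higher by 0.76 with FB23-2 and by 0.41 with CS2 (adjusted p = 1.82e-04), and the difference between the compounds passed (0.35, adjusted p = 5.18e-04; range over all alternatives 5.18e-04 to 1). Other genes overlap 17.9% of the exon bases of STX1A, the most of it by BUD23, a methyltransferase gene, so the STX1A counts are uncertain to that extent. BUD23 itself averaged 91.8 ± 12 CPM with FB23-2, 120.5 ± 6.3 CPM with CS2 and 114.8 ± 4.6 CPM with DMSO (SD, n = 3 each). BUD23 fell with FB23-2 (-0.32 ± 0.09, adjusted p = 0.00475) and did not pass with CS2 (0.07 ± 0.09, adjusted p = 0.54).

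SNAP25, which supplies 2 of the 4 helices of the bundle (ENSG00000132639, chromosome 20, 10218830 to 10307418, plus strand), had 149.8, 165.6 and 142.6 CPM with FB23-2, 130.5, 133.9 and 123.3 CPM with CS2, and 99.6, 111.8 and 105.0 CPM with DMSO. The 3 groups did not overlap, in the order FB23-2, CS2, DMSO. It rose 1.45-fold with FB23-2 (log2 fold change 0.53 ± 0.08, adjusted p = 1.15e-05) and 1.23-fold with CS2 (0.29 ± 0.08, adjusted p = 0.00412). The difference between the compounds, 0.24 ± 0.08 (adjusted p = 0.0121), was lost without CS2 replicate 3 (0.21, adjusted p = 0.0522) and turned to -0.03 with the GC and span correction (adjusted p = 0.733; range over all alternatives 0.00418 to 0.737).

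VAMP2, the vesicle SNARE (ENSG00000220205, chromosome 17, 8159149 to 8163546, minus strand), had 29.8, 22.8 and 25.5 CPM with FB23-2, 28.2, 24.5 and 23.8 CPM with CS2, and 23.4, 21.5 and 23.5 CPM with DMSO. The FB23-2 and DMSO libraries overlapped, and neither difference from DMSO passed, at 0.19 ± 0.11 with FB23-2 (adjusted p = 0.153) and 0.16 ± 0.11 with CS2 (adjusted p = 0.237). VAMP2 passed with FB23-2 without FB23-2 replicate 2 (0.28, adjusted p = 0.0246) and with the GC and span correction (0.36, adjusted p = 0.00215; range over all alternatives 0.002 to 0.52). Other genes overlap 13.2% of its exon bases, and 11.6% of the 50-base windows of its transcripts also occur in other genes, so its counts are uncertain to that extent.

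CPLX2, a complexin that clamps and then promotes fusion of the assembled bundle (ENSG00000145920, chromosome 5, 175796310 to 175884020, plus strand), moved in opposite directions with the compounds. It had 237.9, 215.5 and 227 CPM with FB23-2, 339, 356 and 363 CPM with CS2, and 297, 276 and 291 CPM with DMSO. The 3 groups did not overlap, and DMSO lay between the compounds. CPLX2 fell 1.27-fold with FB23-2 (log2 fold change -0.34 ± 0.07, adjusted p = 3.84e-04) and rose 1.23-fold with CS2 (0.29 ± 0.07, adjusted p = 0.00172), a difference between the compounds of -0.64 ± 0.07 (adjusted p = 2.02e-07). With the GC and span correction, the decrease with FB23-2 was -0.18 (adjusted p = 0.021; range over all alternatives 2.57e-05 to 0.0249).

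Of the vesicle membrane proteins, SYP, synaptophysin (ENSG00000102003, chromosome X, 49187804 to 49200259, minus strand), had 108.0, 77.4 and 110.8 CPM with FB23-2, 132, 139 and 138 CPM with CS2, and 141, 125 and 134 CPM with DMSO. The FB23-2 libraries all lay below those of CS2 and of DMSO, and the CS2 and DMSO libraries overlapped. SYP fell 1.35-fold with FB23-2 (log2 fold change -0.43 ± 0.10, adjusted p = 0.00165) and did not pass with CS2 (0.03 ± 0.10, adjusted p = 0.811). Without FB23-2 replicate 2 the decrease was -0.28 (adjusted p = 0.00177), and with the GC and span correction it was -0.27 (adjusted p = 0.0128; range over all alternatives 1.96e-06 to 0.0133). SYP was lower with FB23-2 than with CS2 by -0.47 ± 0.10 (adjusted p = 6.86e-04), a call lost with the same correction (-0.17, adjusted p = 0.0873; range over all alternatives 1.84e-07 to 0.0873).

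SV2A, a vesicle glycoprotein known as the binding site of the antiepileptic drug levetiracetam (ENSG00000159164, chromosome 1, 149903318 to 149917882, minus strand), had 204, 170.2 and 200.3 CPM with FB23-2, 246, 257 and 223 CPM with CS2, and 146, 132 and 139 CPM with DMSO. The 3 groups did not overlap, in the order CS2, FB23-2, DMSO. SV2A rose 1.38-fold with FB23-2 (log2 fold change 0.47 ± 0.08, adjusted p = 9.55e-05) and 1.75-fold with CS2 (0.80 ± 0.08, adjusted p = 1.45e-07). The difference between the compounds, -0.34 ± 0.08 (adjusted p = 0.00154), was lost with the GC and span correction (-0.14, adjusted p = 0.0761; range over all alternatives 1.20e-04 to 0.0872).

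SYN1, the synapsin whose promoter window holds the RE1 core (ENSG00000008056, chromosome X, 47571898 to 47619943, minus strand), had 16.3, 25.4 and 16.7 CPM with FB23-2, 24.9, 30.9 and 27.1 CPM with CS2, and 15.7, 13.7 and 15.3 CPM with DMSO. Each CS2 library lay above each DMSO library, whereas FB23-2 replicate 2 lay within the range of CS2 and its other libraries lay just above DMSO. SYN1 rose 1.86-fold with CS2 (log2 fold change 0.89 ± 0.14, adjusted p = 3.65e-05). Its 1.31-fold rise with FB23-2 (0.39 ± 0.14, adjusted p = 0.0288) was lost without FB23-2 replicate 2 (0.15, adjusted p = 0.282), DMSO replicate 2 (0.33, adjusted p = 0.109) or DMSO replicate 3 (0.41, adjusted p = 0.0594; range over all alternatives 0.00444 to 0.282). SYN1 was lower with FB23-2 than with CS2 by -0.50 ± 0.14 (adjusted p = 0.00477), which was lost with the GC and span correction (-0.19, adjusted p = 0.443; range over all alternatives 1.19e-06 to 0.443). Other genes overlap 8.37% of its exon bases.

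Among the active zone scaffolds, PCLO, piccolo (ENSG00000186472, chromosome 7, 82754013 to 83162930, minus strand), had the largest changes of the 9 genes, and in opposite directions. It had 357.8, 455.7 and 366.9 CPM with FB23-2, 62.5, 58.2 and 61.8 CPM with CS2, and 150.6, 183.9 and 182.8 CPM with DMSO. The 3 groups were far apart, with DMSO between the compounds. PCLO rose 2.28-fold with FB23-2 (log2 fold change 1.19 ± 0.10, adjusted p = 3.97e-09) and fell 2.84-fold with CS2 (-1.50 ± 0.10, adjusted p = 2.39e-10). Between the compounds it was 6.47-fold higher with FB23-2 (2.69 ± 0.10, adjusted p = 1.76e-13). Without FB23-2 replicate 2 the rise was 1.07.

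PCLO spans 408.9 kb, the most of the 9 genes, and its decrease with CS2 was read against genes of like span. Of 400 protein-coding genes spanning over 300 and up to 500 kb, PCLO among them, the median log2 fold change with CS2 was -0.82, and 61 were at or below PCLO. With FB23-2 the median of these genes was -0.15, and 18 were at or above PCLO. With the GC and span correction, PCLO was lower with CS2 by -0.64 (adjusted p = 6.48e-07; range over all alternatives 1.04e-68 to 7.82e-07) and higher with FB23-2 by 1.32. That correction also takes out any effect of a compound that follows span.

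BSN, bassoon, the homologue of piccolo (ENSG00000164061, chromosome 3, 49554489 to 49671545, plus strand), had 91.1, 78.4 and 82.5 CPM with FB23-2, 96.2, 93.2 and 79.4 CPM with CS2, and 97.8, 89.4 and 105.1 CPM with DMSO. All 3 groups overlapped. BSN did not pass with FB23-2 (log2 fold change -0.21 ± 0.09, adjusted p = 0.0532) or CS2 (-0.12 ± 0.09, adjusted p = 0.28). With FB23-2 it lay close to the threshold and passed with no filter on low counts (-0.22, adjusted p = 0.0382), with the replicate block (-0.22, adjusted p = 0.0296), without DMSO replicate 2 (-0.27, adjusted p = 0.0357) and without FB23-2 replicate 1 (-0.27, adjusted p = 0.0302; range over all alternatives 0.0296 to 0.893).

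**Figure D2:**
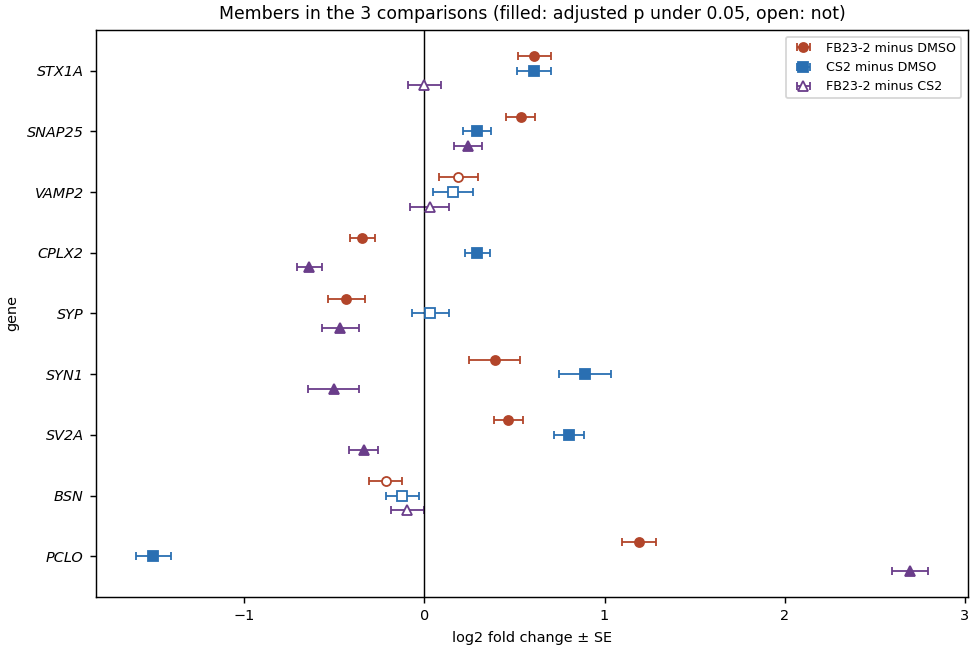
Log2 fold change with its SE (horizontal axis) of each gene for FB23-2 minus DMSO, CS2 minus DMSO and FB23-2 minus CS2. Filled symbols passed at an adjusted p under 0.05. PCLO runs from -1.50 with CS2 to 1.19 with FB23-2, and CPLX2 is the other gene called in opposite directions by the compounds.

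Levels were compared between genes as CPM per kb of exon, with exon bases merged over the annotated transcripts. With FB23-2 the order was SNAP25 (45.5 ± 3.5 CPM per kb), SV2A (39.7 ± 3.8), CPLX2 (32.0 ± 1.6), STX1A (24.6 ± 1.4), SYP (18.9 ± 3.6), PCLO (17.2 ± 2.4), VAMP2 (7.97 ± 1.1), BSN (5.18 ± 0.40) and SYN1 (5.09 ± 1.4; all SD, n = 3). SYP and PCLO overlapped there, as did BSN and SYN1. With CS2, SV2A (50.2 ± 3.6 CPM per kb) and CPLX2 (49.7 ± 1.7) led and overlapped, followed by SNAP25 (38.5 ± 1.6), SYP (26.2 ± 0.66), STX1A (24.6 ± 2.5), VAMP2 (7.80 ± 0.73), SYN1 (7.23 ± 0.79), BSN (5.52 ± 0.55) and PCLO (2.66 ± 0.10). SYP overlapped STX1A, and VAMP2 overlapped SYN1. With DMSO, CPLX2 was highest (40.6 ± 1.6 CPM per kb), then SNAP25 (31.4 ± 1.8) and SV2A (28.7 ± 1.4), which overlapped, SYP (25.5 ± 1.6), STX1A (16.1 ± 1.6), PCLO (7.54 ± 0.83) and VAMP2 (6.98 ± 0.35), which overlapped, BSN (6.01 ± 0.49) and SYN1 (3.89 ± 0.27). PCLO thus ranked sixth with FB23-2 and DMSO and last with CS2. The vesicle SNARE VAMP2 was below both plasma membrane SNAREs in every group.

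Ratios within a library, which do not depend on how libraries are scaled, set several of the genes beside a relative. PCLO over BSN, per kb of exon, was 2.79, 4.12 and 3.16 in the FB23-2 libraries, 0.461, 0.443 and 0.552 in the CS2 libraries and 1.09, 1.46 and 1.23 in the DMSO libraries, so PCLO was the higher of these scaffolds except with CS2. SYN1 over SYN2 was 0.895, 1.53 and 1.14 with FB23-2, 2.01, 2.69 and 2.28 with CS2 and 0.737, 0.699 and 0.79 with DMSO. SV2A over SV2B was 3.05, 2.45 and 3.30 with FB23-2, between 4.195 and 5.015 with CS2 and between 1.38 and 1.61 with DMSO. For both pairs every treated library lay above every DMSO library. These ratios set genes of unlike genomic span side by side. SYN1 spans 48.05 kb and SYN2 187 kb, SV2A 14.56 kb and SV2B 201.4 kb, and PCLO 408.9 kb and BSN 117.1 kb. With CS2 the median log2 fold change of all protein-coding genes was 0.14 up to 50 kb and -0.69 over 200 kb. The part of span in the ratios was not tested. SYN2 and SV2B were themselves lower with CS2, as given below. SNAP25 exceeded SNAP23, its ubiquitous relative, between 50.5-fold and 87.5-fold in every library. VAMP2 over VAMP1 was between 1.54 and 1.92 with FB23-2, between 1.03 and 1.39 with CS2 and between 1.91 and 2.18 with DMSO, far closer to 1 than SNAP25 over SNAP23. SYP over SYPL1, its widely expressed relative, was between 0.296 and 0.372 with FB23-2, between 0.517 and 0.551 with CS2 and between 0.486 and 0.560 with DMSO, below 1 in every library.

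**Figure D3:**
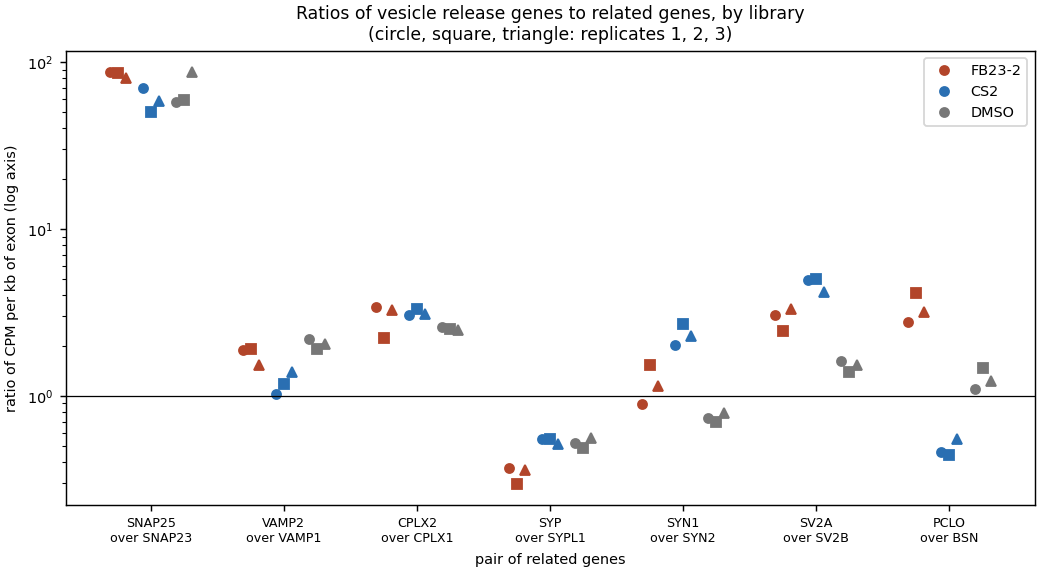
Ratio of CPM per kb of exon (log axis) of vesicle release genes to related genes, for every library of the FB23-2, CS2 and DMSO groups, with a line at a ratio of 1. PCLO over BSN lies between 2.79 and 4.12 with FB23-2, between 0.443 and 0.552 with CS2 and between 1.09 and 1.46 with DMSO.

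The wider vesicle release list held 121 further genes in 7 roles, of which 110 were tested. With FB23-2, 36 were higher and 34 lower (63.6% called), with a median log2 fold change of -0.004. With CS2, 32 were higher and 40 lower (65.5% called), with a median of -0.10. Between the compounds 49 were higher and 34 lower with FB23-2 (75.5% called), with a median of 0.18. The shares of all genes called in these comparisons, given above by direction, were 52.0%, 49.7% and 59.6%. With the filter set at a mean of at least 1 CPM, 8944, 8492 and 9989 of 15134 genes were called, a larger share in each. The roles below differ in genomic span, which the counts with CS2 followed, as given further below.

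Of 12 further SNARE genes, 5 were higher and 2 lower with FB23-2, and 6 were higher and 0 lower with CS2. The longest of them, STX3, spans 92.43 kb. Of all protein-coding genes up to 50 kb, 34.2% were higher and 17.3% lower with CS2. From 50 to 200 kb these shares were 20.1% and 33.9%. STX3 and STX4, syntaxins of apical and constitutive fusion, rose with both: STX3 by 0.66 ± 0.08 with FB23-2 and 0.73 ± 0.08 with CS2, and STX4 by 0.41 ± 0.10 with FB23-2 and 0.87 ± 0.10 with CS2.

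Of 21 tested SNARE regulators and recycling factors, 6 were higher and 8 lower with FB23-2, and 4 were higher and 9 lower with CS2. CADPS and CADPS2, the CAPS priming factors of dense core vesicles, were lower with both compounds. CADPS averaged 24.3 ± 1.9 CPM with FB23-2, 31.0 ± 2.2 CPM with CS2 and 59.2 ± 1.6 CPM with DMSO, and CADPS2 averaged 119.6 ± 6.9 CPM with FB23-2, 104.6 ± 12.6 CPM with CS2 and 256 ± 6.4 CPM with DMSO. With the GC and span correction, the log2 fold change of CADPS with CS2 was 0.00 (adjusted p = 0.99), and that of CADPS2 was -0.23 (adjusted p = 0.0159). UNC13A, a Munc13 priming factor, averaged 254.9 ± 7.0 CPM with FB23-2, 132 ± 7.7 CPM with CS2 and 177 ± 3.7 CPM with DMSO, and was 0.95 ± 0.07 higher with FB23-2 than with CS2. Its relative UNC13B averaged 292.3 ± 8.1 CPM with FB23-2, 373.9 ± 3.5 CPM with CS2 and 420.3 ± 3.4 CPM with DMSO. Against DMSO, UNC13A rose with FB23-2 (0.53 ± 0.07) where UNC13B fell. Both were called lower with CS2, UNC13A by -0.42 ± 0.07 and UNC13B by -0.17 ± 0.07. The log2 fold change of UNC13B was -0.52 ± 0.07 with FB23-2 against DMSO and -0.36 ± 0.07 with FB23-2 against CS2. UNC13B was named as the relative of UNC13A.

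Of 12 tested calcium sensors and related C2-domain genes, 4 were higher and 3 lower with FB23-2, and 6 were higher and 3 lower with CS2. SYT1, the main synaptotagmin of fast release, averaged 150.6 ± 28.9 CPM with FB23-2, 45.0 ± 4.1 CPM with CS2 and 163 ± 11.4 CPM with DMSO. It fell by 1.85 on the log2 scale with CS2 (± 0.11, adjusted p = 1.11e-10, edgeR), and by 0.77 with the GC and span correction. SYT11, a synaptotagmin that does not bind calcium, averaged 95.7 ± 6.4 CPM with FB23-2, 147 ± 8.2 CPM with CS2 and 70.8 ± 3.2 CPM with DMSO, and rose by 1.06 ± 0.08 with CS2.

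Of 22 tested vesicle membrane genes and synapsins, 5 were higher and 6 lower with FB23-2, and 6 were higher and 5 lower with CS2. SV2B averaged 169.7 ± 11.8 CPM with FB23-2, 133 ± 4.5 CPM with CS2 and 238 ± 7.2 CPM with DMSO, and SYN2 averaged 24.5 ± 2.7 CPM with FB23-2, 17.8 ± 0.68 CPM with CS2 and 29.8 ± 1.6 CPM with DMSO, so these relatives of SV2A and SYN1 were highest with DMSO. Both were named for the ratios above. RAB3A, the small GTPase of secretory vesicles, had 88.7 ± 24.6 CPM with FB23-2, 47.5 ± 1.3 CPM with CS2 and 54.1 ± 5.2 CPM with DMSO. Its rise with FB23-2, 0.71 ± 0.14 (adjusted p = 6.49e-04), was 0.46 without FB23-2 replicate 2. SYNGR1, a synaptogyrin of the vesicle membrane, averaged 24.8 ± 3.6 CPM with FB23-2, 45.2 ± 3.1 CPM with CS2 and 23.3 ± 3.0 CPM with DMSO.

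Of 17 tested active zone genes, 8 were higher and 5 lower with FB23-2, and 5 were higher and 8 lower with CS2. Between the compounds, 11 were higher and 4 lower with FB23-2. RIMS2, a RIM scaffold that tethers vesicles and calcium channels, averaged 38.4 ± 4.1 CPM with FB23-2, 11.4 ± 1.6 CPM with CS2 and 57.4 ± 3.9 CPM with DMSO. ERC1, an ELKS scaffold that binds BSN and RIM proteins, averaged 113 ± 4.9 CPM with FB23-2, 71.2 ± 0.72 CPM with CS2 and 168 ± 9.2 CPM with DMSO. With CS2, RIMS2 had a log2 fold change of -2.33 (adjusted p = 5.86e-12, edgeR), or -1.11 after the GC and span correction. ERC1 had one of -1.24 (adjusted p = 8.99e-11, edgeR), or -0.27 after that correction. CASK and APBA1, adaptors that bind each other, were higher with FB23-2 than with CS2 by 1.12 ± 0.09 for CASK and 2.08 ± 0.16 for APBA1, and by 0.40 for CASK with the GC and span correction.

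Of 12 tested calcium channel genes, 2 were higher and 6 lower with FB23-2, and 1 was higher and 8 lower with CS2. Most of these channel genes span over 200 kb, a class in which 4.5% of all protein-coding genes were higher and 68.8% lower with CS2. CACNA1A, the pore of the P/Q-type channel, averaged 123.5 ± 17.7 CPM with FB23-2, 229.8 ± 24 CPM with CS2 and 408 ± 19.6 CPM with DMSO. It fell by 1.72 on the log2 scale with FB23-2 (± 0.10, adjusted p = 2.39e-11, edgeR). CACNA2D1, an auxiliary subunit, averaged 157.5 ± 13.5 CPM with FB23-2, 82.1 ± 8.2 CPM with CS2 and 223 ± 25.5 CPM with DMSO. It fell by 1.44 with CS2, and by 0.43 with the GC and span correction.

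Of 14 tested endocytosis genes, which retrieve vesicle membrane after fusion, 6 were higher and 4 lower with FB23-2, and 4 were higher and 7 lower with CS2. DNM1, the dynamin that cuts endocytic vesicles from the membrane, averaged 21.8 ± 0.45 CPM with FB23-2, 9.11 ± 1.3 CPM with CS2 and 5.05 ± 0.16 CPM with DMSO. It rose by 2.11 ± 0.13 with FB23-2 (adjusted p = 5.98e-11, edgeR) and by 0.85 ± 0.13 with CS2 (adjusted p = 1.74e-05, edgeR). DNAJC6, auxilin, which strips clathrin coats, averaged 113.7 ± 14.4 CPM with FB23-2, 43.4 ± 1.9 CPM with CS2 and 96.0 ± 1.3 CPM with DMSO. DNM3, another dynamin, fell by 0.75 with CS2, and its direction turned to 0.32 with the GC and span correction (adjusted p = 0.0165).

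The counts of the wider list and the 9 genes together moved with genomic span in the CS2 comparison, a grouping chosen with earlier results of these data known. Of 35 of these genes spanning over 200 kb, 0 were higher and 27 (77.1%) lower with CS2, beside 4.5% and 68.8% of 1223 protein-coding genes of that class. Of 47 genes spanning up to 50 kb, 26 (55.3%) were higher and 4 (8.51%) lower with CS2, beside 34.2% and 17.3% of 8679 protein-coding genes. Medians of the log2 fold change with CS2 were -0.92 over 200 kb and 0.30 up to 50 kb in the list, and -0.69 and 0.14 in all protein-coding genes of these classes. With FB23-2, of the genes over 200 kb 5 (14.3%) were higher and 16 (45.7%) lower, beside 24.7% and 36.0% of the 1223 protein-coding genes of that class, and PCLO was among the 5. Of the 9 genes, PCLO alone spans over 200 kb.

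**Figure D4:**
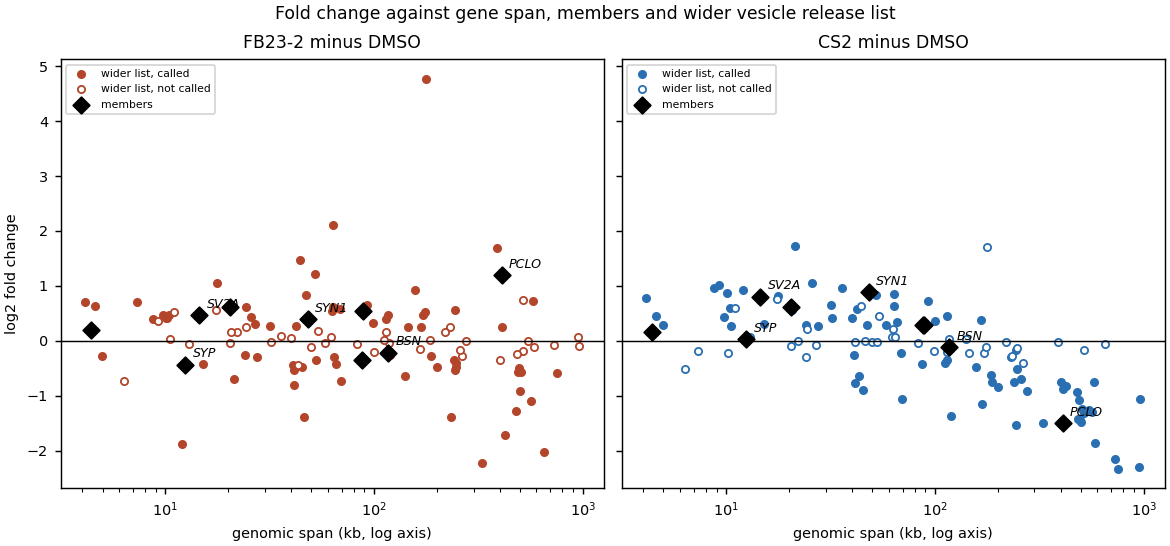
Log2 fold change (vertical axis) against genomic span in kb (log axis) of the 9 genes (black diamonds) and of the wider list (circles, filled where called), for FB23-2 minus DMSO on the left and CS2 minus DMSO on the right. With CS2 the 27 called genes over 200 kb all lie below 0, whereas PCLO lies at 1.19 with FB23-2.

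INSM1, a zinc finger factor that drives the neuroendocrine state, fell on the log2 scale by 0.49 with FB23-2 (± 0.08, adjusted p = 2.91e-05) and by 0.29 with CS2 (± 0.08, adjusted p = 0.00435). Of the 9 genes, SYP and CPLX2 fell with FB23-2 as well, while STX1A, SNAP25 and SV2A rose with both compounds. Over the 9 libraries, among 9923 genes with a symbol and a mean of at least 10 CPM, the log2 levels most correlated with SYP were those of HS6ST1 and ATP6V1B2 (Pearson r = 0.989 each). With SNAP25 they were those of ZDBF2 (r = 0.990) and ADAM17 (r = 0.988), and with STX1A that of RHPN1 (r = 0.991). These are the highest of many correlations over libraries that share 3 treatments, and are given as a description.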

How the data were processed

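Libraries of NCI-H69 messenger RNA came from TRIzol extracts and the Hieff NGS Ultima Dual-mode kit, as the labels' protocols state. The deposited values are raw, whole-number counts for each gene, and the submitters' processing notes name hg38. Which aligner, counter, annotation and strand setting the authors used is not given in the sources used here. Overlapping and antisense genes may therefore share reads. Columns were matched to samples by library name, and FB23 was read as FB23-2.

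Genes were kept with filterByExpr (minimum count 10, minimum total 15), giving 19781 genes with between 99.902% and 99.922% of each library. All 9 libraries entered 1 fit without covariates in edgeR 4.0.16 (R 4.3.3) with TMM scaling and the robust quasi-likelihood test, checked on simulated data, and p-values were adjusted by Benjamini-Hochberg over all genes tested. The SE is the log2 fold change over the square root of F. Places, spans and exon lengths came from GENCODE 29 (GRCh38), promoter windows from RefSeq. No pair of replicates agreed within sampling noise (lowest chi-square over its degrees of freedom 4.16), and p-values measure the spread between these libraries. FB23-2 replicate 2 stood furthest apart, at 48.94 and 46.95 against the other FB23-2 libraries, where all other pairs lay between 4.16 and 14.02. The limit of 3 counts covers counting error only.

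The 9 genes, the lists and the rules for naming genes (in each role up to 4 called genes with the largest changes and at least 1 CPM in a group, of which those printed were picked after their values were seen) were chosen with earlier results of these data known. Alternatives were RLE factors, library size alone, other filters, DESeq2 1.42.0, only the 2 groups compared, a replicate block, no mitochondrial genes, a correction for GC content and span (a smooth per library, mgcv 1.9.3) and leaving out each library. Protein sequences were not used here, and some items are not reported here.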

Additional observations from a re-analysis of the deposited data

How the results depend on the processing

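Each of the 27 fold changes of the 9 genes was recomputed under 19 alternatives. Of these 513 values, 490 kept their direction, where called, and their side of the threshold. With the GC and span correction, the difference of SNAP25 between the compounds reversed to -0.027, with and without the replicate block. Further calls were lost 10 times and gained 11 times, and these are the values given beside SYP, SYN1, SV2A, SNAP25, STX1A, VAMP2 and BSN in the report, with STX1A (0.351, adjusted p = 5.18e-04) and VAMP2 (0.219, adjusted p = 0.0425) higher with FB23-2 than with CS2 after that correction. The cause was not tested. The correction also moved STX1A with CS2 to 0.405 and PCLO with CS2 to -0.64. The count of the 9 genes called ranged from 6 to 8 with FB23-2, was 6 with CS2 throughout and ranged from 4 to 6 between the compounds. Leaving out 1 library gave 6 to 8, 6, and 5 to 6. Over all genes the counts ranged from 8795 to 10698, 8345 to 11024 and 9989 to 12227. Same-numbered libraries did not deviate together where 1 of the pair was DMSO (correlations from -0.03 to 0.021). Between CS2 and FB23-2, same-numbered libraries had correlations of 0.167, 0.123 and 0.049, above all differently numbered ones (-0.138 to 0.02). Whether the number marks a pairing was not tested. With the replicate block 10698, 10271 and 12136 genes were called, and BSN was called with FB23-2. Depth does not limit these genes, all above 13 CPM in every library, whereas REST lies under the limit of 3 counts.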

Other observations

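The whole RE1 core found in SYN1 was also present in the promoter window of RPH3A, a rabphilin gene that binds RAB3 proteins on vesicles, and in no other gene of the wider list. RPH3A averaged 1.57 ± 0.42 CPM with FB23-2, 2.63 ± 0.57 CPM with CS2 and 7.45 ± 0.20 CPM with DMSO (SD, n = 3 each). It fell by 2.23 on the log2 scale with FB23-2 (± 0.20, adjusted p = 2.43e-08, edgeR) and had a log2 fold change of -1.504 with CS2 (± 0.20, adjusted p = 2.88e-06, edgeR; -0.82 after the GC and span correction), whereas SYN1 rose with CS2. REST was at or near 0 counts in all 9 libraries, as given above.

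Of markers of brain neurons, MAP2, ELAVL4 and TUBB3 were present while NEFL and NEFM stayed under 0.2 CPM in every library. The 7 markers summed to between 285 and 347 CPM with FB23-2, 238 and 252 CPM with CS2 and 378 and 421 CPM with DMSO. MAP2 made up most of these sums, and MAP2 (-0.87 ± 0.08) and ELAVL4 (-0.39 ± 0.09) were called lower with CS2. With FB23-2, ELAVL4 (-1.30 ± 0.09), TUBB3 (-0.92 ± 0.16) and MAP2 (-0.21 ± 0.08, libraries overlapping DMSO) were called lower, and RBFOX3 and NEFH did not pass. RBFOX3 (1.41 ± 0.45, adjusted p = 0.0139, edgeR) and NEFH (1.06 ± 0.40, adjusted p = 0.0344, edgeR) were called higher with CS2. They averaged 0.806 and 1.06 CPM there, and for NEFH the CS2 and DMSO libraries overlapped. FOXJ1, the factor of ciliated airway cells, lay at 0.119, 0.0719 and 0.233 CPM with FB23-2, 4.42, 5.84 and 6.02 CPM with CS2 and 0.816, 0.763 and 1.24 CPM with DMSO, and was singled out after its values were seen. None of the other 4 genes of the airway and squamous list was called higher with CS2. TP63 averaged 1.01 ± 0.15 CPM with FB23-2, 0.762 ± 0.18 CPM with CS2 and 1.95 ± 0.20 CPM with DMSO, with a log2 fold change of -1.35 ± 0.27 with CS2 (adjusted p = 3.13e-04, edgeR). KRT5 stayed under 1 CPM in every library and did not pass with CS2 (-0.36 ± 0.57, adjusted p = 0.626, edgeR), and SCGB1A1 and SFTPC were too low to be tested.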
